A study of Mus musculus with 14 samples.

Results

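The genes described here are those for the subunits of voltage-gated calcium and sodium channels, measured by RNA sequencing in granule neuron progenitors (GNPs) of the mouse cerebellum at postnatal day 7 (P7). They were chosen by symbol alone, as every protein coding gene of the Cacna1, Cacna2d, Cacnb, Cacng and Scn families. The rule found 40 genes among the 41381 genes of the deposited table: 10 Cacna1 pore subunits, 4 Cacna2d, 4 Cacnb, 8 Cacng, 10 Scn alpha and 4 Scn beta subunits. The study compared freshly isolated GNPs that keep or lose Chd7, a chromatin remodelling enzyme. The labels and methods put 14 libraries in 3 groups, with the strain given as C57BL/6N in the methods, as C57BL/6 in the labels of the later libraries and as C56Bl6/J in those of the earlier ones. WT (n = 5) is labelled wild type or Atoh1-Cre negative, and the methods describe WT mice as carrying floxed Chd7 (f/f) with no Cre. Het (n = 5) is Atoh1-Cre::Chd7 f/+, in which Cre can remove 1 of the copies, and Hom (n = 4) is Atoh1-Cre::Chd7 f/f, in which it can remove both. Atoh1-Cre acts in the granule cell lineage, so other cells that remain in a GNP preparation keep their Chd7. Levels are given as TPM, the share of all transcripts corrected for transcript length, so levels of different genes can be set side by side.

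Voltage-gated calcium channels open when the membrane depolarizes and let calcium in. Their pore is a Cacna1 subunit, which Cacnb subunits in the cytoplasm and Cacna2d subunits outside the cell bring to the surface, while most Cacng proteins are better known for guiding AMPA-type glutamate receptors. Voltage-gated sodium channels carry the rising phase of the action potential through an Scn alpha subunit, with Scn beta subunits as adhesive partners. Developing granule neurons acquire both currents as they leave the cell cycle, extend axons and migrate, and calcium entry paces their migration.

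The promoters of the only channel genes that passed the test in Hom are printed here because the results turn on this pair. Each window runs from 250 bases before to 50 bases after the RefSeq start (GRCm38.p6), and in both genes that start is also the outermost GENCODE start. Capitals mark E-boxes (CANNTG, the core bound by bHLH factors such as Atoh1) and GC boxes (GGGCGG) on either strand, so that a GC box on the minus strand reads CCGCCC. The Cacna2d1 window lies at chr5:15934441-15934740 on the plus strand, and the Cacna1i window at chr15:80286988-80287287 on the plus strand.
Cacna2d1: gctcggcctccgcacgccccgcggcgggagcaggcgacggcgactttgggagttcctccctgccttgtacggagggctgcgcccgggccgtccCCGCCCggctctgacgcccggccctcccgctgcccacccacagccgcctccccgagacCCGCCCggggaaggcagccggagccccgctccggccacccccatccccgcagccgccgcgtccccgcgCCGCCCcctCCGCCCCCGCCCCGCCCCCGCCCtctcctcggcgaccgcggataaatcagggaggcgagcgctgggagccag
Cacna1i: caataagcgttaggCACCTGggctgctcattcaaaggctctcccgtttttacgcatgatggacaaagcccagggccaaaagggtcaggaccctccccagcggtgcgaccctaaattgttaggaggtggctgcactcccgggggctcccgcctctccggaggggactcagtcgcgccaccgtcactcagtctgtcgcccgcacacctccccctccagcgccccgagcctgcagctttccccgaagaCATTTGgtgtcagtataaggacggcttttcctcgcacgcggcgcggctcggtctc
The Cacna2d1 window had a GC content of 80% and held 7 GC boxes, some of which adjoin or overlap by a base in its last stretch, and 0 E-boxes. The Cacna1i window had a GC content of 62.7% and held 2 E-boxes and 0 GC boxes.

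Some libraries stood apart before any channel gene was considered. WT 1 to 3 had summed Purkinje cell marker levels of 136 to 182 TPM (7 genes), against 22.8 to 78.3 TPM in the other 11 libraries, where Het 3 was the highest. Their astroglia markers summed to 1121 to 1784 TPM (Het 3, 1098 TPM) against 302 to 828 TPM in the other libraries, and their endothelium markers to 23.6 to 32.7 TPM (Het 3, 19.5 TPM) against 106 to 431 TPM. Summed skeletal muscle markers were 1.87 to 3.33 TPM in WT and 7.98 to 25.1 TPM in Hom, with Hom 4 the highest. GNP markers were present in all libraries (3343 to 4738 TPM summed over 10 genes), and in Hom against WT 1 of them was called lower (Neurod1, log2 change -0.55, limma adjusted p = 0.0116) and 1 higher (Ccnd1, 0.80, adjusted p = 0.000111). The Purkinje cell marker Pcp4 was also called lower (-1.73, limma adjusted p = 0.00914). Libraries were sequenced in 2 batches, WT 1 to 3, Het 1 to 3 and Hom 1 and 2 in the first and the rest in the second. The TPM of Chd7 itself did not follow the labels in batch 1: it differed between Hom and WT by 0.41 on the log2 scale in batch 1 and by -0.77 in batch 2. Over both batches the change was -0.11 (limma adjusted p = 0.862). The study itself reports lower Chd7 transcripts in Het and Hom GNPs by qRT-PCR, and loss of the protein in Hom granule cells by immunostaining. It also reports Chd7 protein remaining in the posterior lobe of Hom cerebella, which it puts down to probably lower recombination by Atoh1-Cre. The deposited values count reads of the whole gene, so a deleted stretch need not lower them, which was not tested. Every direction below is therefore that of libraries labelled Hom, Het or WT. In such bulk samples, fewer cells of a type and less RNA per cell cannot be told apart.

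GNPs held transcripts of most channel genes, and each class was led by 1 or a few members. In WT the highest levels were those of Cacna2d1 (76.6 ± 6.82 TPM, SD, n = 5), Cacnb3 (61.7 ± 5.53 TPM), Cacng7 (46.9 ± 6.21 TPM), Scn8a (43.9 ± 3.54 TPM), Cacng2 (42.1 ± 6.97 TPM) and Cacna1e (40.9 ± 4.63 TPM). The last 4 lie within 1 SD of their neighbours in this order. Together the 40 genes summed to 478 to 615 TPM per library. Of the 40 genes, 29 reached 1 TPM in at least 4 libraries and were tested. The other 11 included Cacna1f, Cacna2d4, Cacng1, Cacng6, Scn4a, Scn7a, Scn9a, Scn10a, Scn11a and Scn4b, which are known mainly from retina, skeletal muscle, sensory neurons or other brain regions. Their group means ran up to 0.995 TPM, that of Cacna2d4 in Hom. The plot of levels shows the span of these levels.

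**Figure D1:**
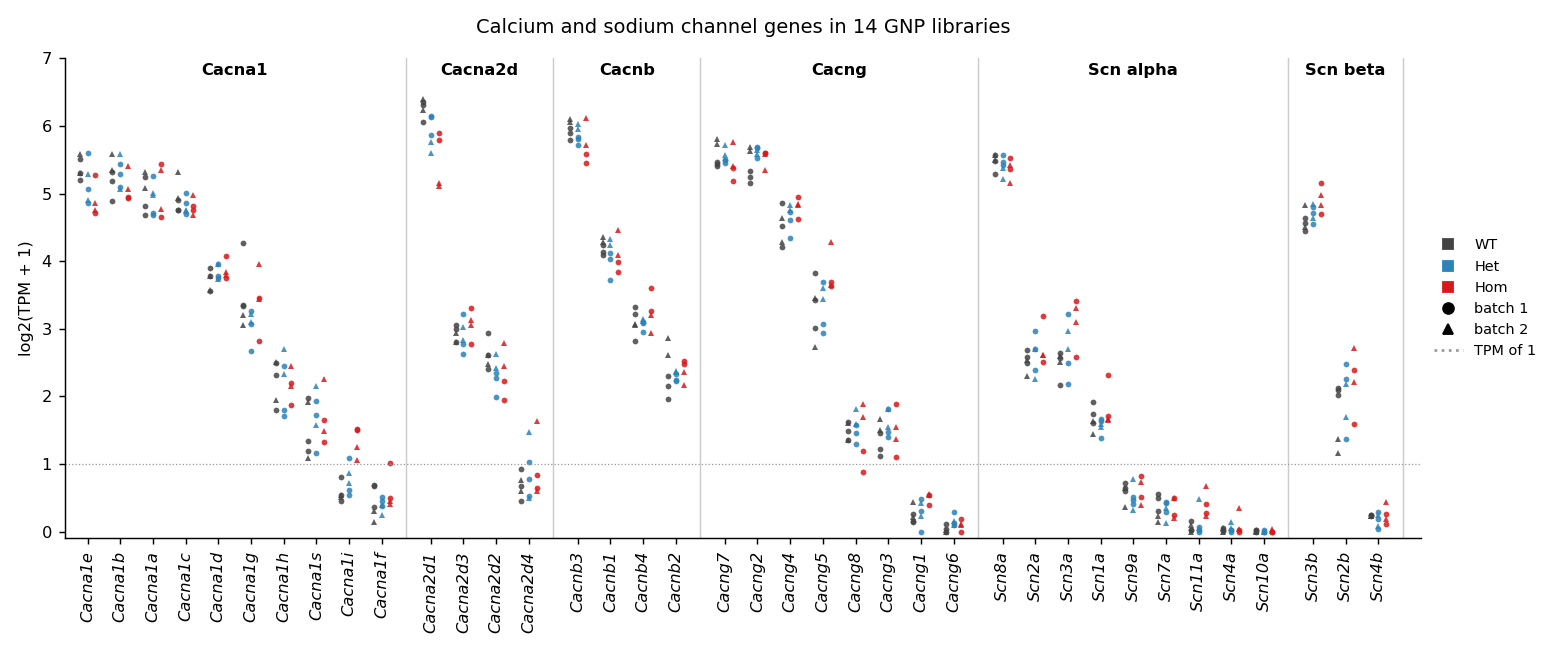
Levels of 38 channel genes. Each point is 1 library, with log2(TPM + 1) on the y axis and genes on the x axis, grouped by subunit class and ordered by WT mean, coloured by genotype, with circles for batch 1 and triangles for batch 2. The untested genes lie mostly under the dotted line at 1 TPM, and Cacna2d1 lies above the other Cacna2d genes in every library.

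In the libraries labelled Hom, few channel genes changed. In Hom against WT, 1 of 29 tested members was lower (Cacna2d1) and 1 was higher (Cacna1i) at an adjusted p under 0.05 (limma, adjusted over the 17325 genes tested). The background was 1.41% of all tested genes lower and 1.27% higher. Before adjustment, with p under 0.05, 3 members were lower (Cacna2d1, Cacnb3 and Cacna1e) and 5 were higher (Cacna1i, Scn3b, Scn3a, Cacng5 and Cacng4), against a background of 6.42% and 8.51%. The median change of the 29 members was 0.011 on the log2 scale, beside 0.024 over all genes tested. In Het against WT limma called 0 members, with a background of 0.00577% called, all of it higher. Before adjustment 1 member was lower there (Cacna2d1, background 2.88%) and 1 higher (Cacng2, background 3.2%), or 6.08% of all genes in either direction. In Hom against Het limma called 0 members, beside 0.277% of all genes lower and 0.15% higher (0.427% in all). Before adjustment 2 members were lower in that contrast (Cacna2d1 and Cacnb3, background 3.13%) and 1 higher (Cacna1i, background 3.05%), beside 6.18% of all genes in either direction. Both contrasts with WT use the same WT libraries. After removal of the batch term, a Kruskal-Wallis test by exact permutation put the same pair of genes under its threshold of 0.01 (p = 0.00103 for Cacna2d1 and p = 0.00418 for Cacna1i, unadjusted), beside 2.22% of all tested genes under it and lower in Hom and 2.42% under it and higher. The plot of changes gives the intervals.

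**Figure D2:**
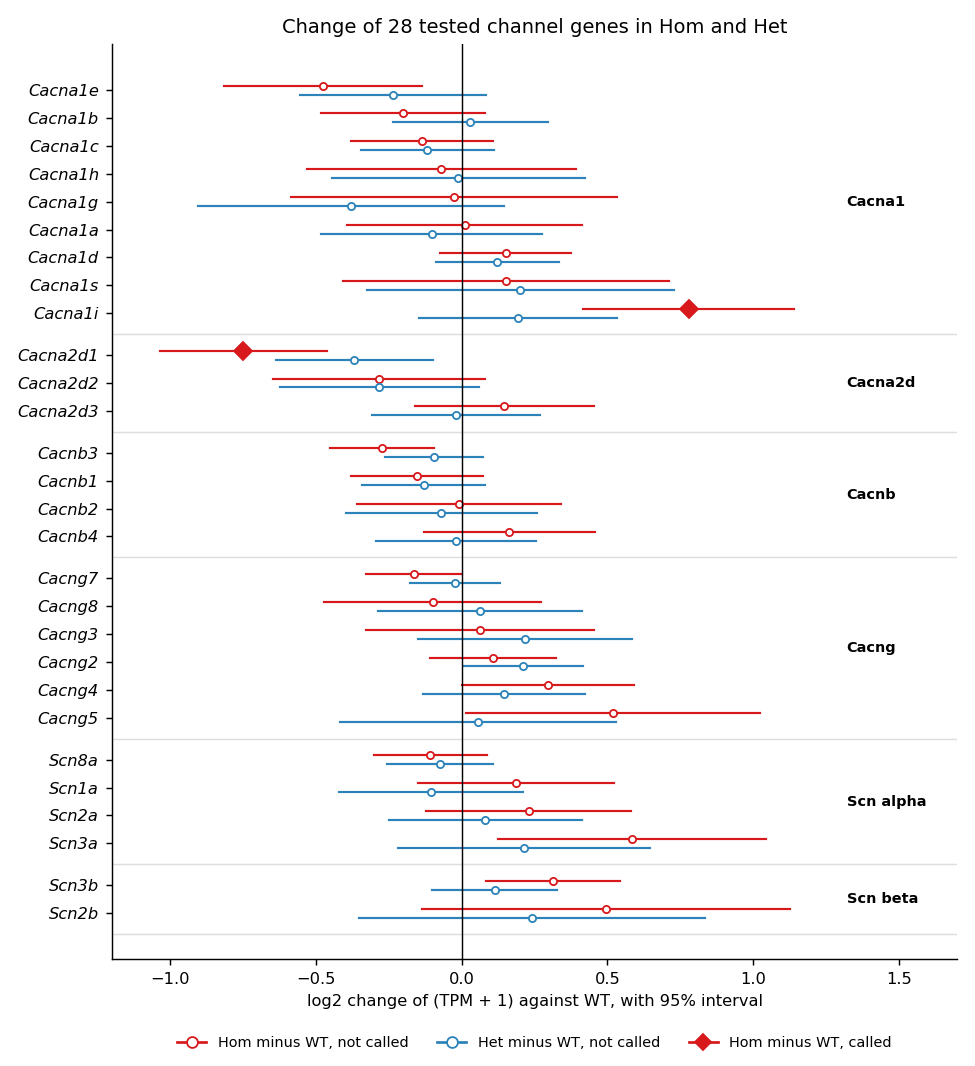
Change of 28 tested channel genes. Points show the log2 change of (TPM + 1) against WT for Hom (red) and Het (blue), lines the 95% interval from limma, and filled diamonds the calls at an adjusted p under 0.05. Cacna2d1 at -0.75 and Cacna1i at 0.78 are the called genes, and most other intervals cross 0.

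Among the Cacna2d subunits, which carry pore subunits to the membrane, Cacna2d1, a target of gabapentinoid drugs, fell in Hom. Cacna2d1 (ENSMUSG00000040118) spans chr5:15934691-16374511 on the plus strand of GRCm38. Its levels were 66.0, 81.3, 78.4, 83.1 and 74.1 TPM in WT 1 to 5. They were 70.0, 69.1, 57.6, 53.5 and 47.6 TPM in Het 1 to 5, and 54.5, 58.8, 34.8 and 33.6 TPM in Hom 1 to 4. All Hom libraries lay below all WT libraries, and Het lay between them with overlap on both sides. The log2 change in Hom was -0.75 (SE 0.13, 95% interval -1.04 to -0.46, limma adjusted p = 0.00783), or 0.595 times the WT value of TPM + 1. Cacna2d1 was the only 1 of the 29 tested members whose Hom libraries all lay below WT, beside 1.96% of all tested genes. The change in Het was -0.37 (SE 0.13, limma adjusted p = 0.606) and that from Het to Hom -0.38 (SE 0.13, limma adjusted p = 0.4995), so neighbours in the order WT, Het, Hom were not separated after adjustment. The study's own list of genes lower in Hom GNPs, which was selected on these libraries, holds Cacna2d1, so this call is not independent of it. By qRT-PCR the study also found Cacna2d1 lower in cultured postmitotic granule neurons of Chd7 mutants, and in such neurons treated with a topoisomerase II inhibitor. Those are other cells than the GNPs measured here. Within batch 1 the change was -0.40 (limma adjusted p = 0.198) and within batch 2 it was -1.17 (adjusted p = 0.0615). The difference between the batches was -0.78 (limma interaction term, adjusted p = 0.127). Without WT 1 to 3 and Het 3, the libraries with the highest Purkinje cell markers, it was -1.11 (limma adjusted p = 0.00502). That alternative was chosen after seeing the data and leaves WT libraries in batch 2 only, and the part of those other cells in the result was not tested.

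The other Cacna2d genes did not pass the test. Cacna2d2, mutated in the ataxic ducky mouse and strong in Purkinje cells, had 5.17 ± 0.913 TPM in WT and 4.23 ± 1.29 TPM in Hom (log2 change -0.28, 95% interval -0.65 to 0.08). Cacna2d3 had 6.58 ± 0.595 TPM in WT and 7.44 ± 1.24 TPM in Hom (log2 change 0.15, 95% interval -0.16 to 0.45). The 3 genes other than Cacna2d1 summed to 11.1 to 14.9 TPM in WT and 9.29 to 15.8 TPM in Hom. Cacna2d1 accordingly made up 86.1 ± 1.26% of the class in WT, 83.5 ± 4.21% in Het and 77.2 ± 7.74% in Hom.

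Among the pore subunits, those of the high-voltage-activated channels were the most abundant, and Cacna1i, a low-voltage-activated (T-type) subunit, was the gene called higher in Hom. Cacna1e (R-type) made up 24.1 ± 1.22% of the Cacna1 sum in WT, Cacna1b (N-type, presynaptic) 22.4 ± 2.95%, Cacna1a (P/Q-type, presynaptic) 18.8 ± 1.66% and Cacna1c (L-type, coupled to gene regulation) 17.6 ± 1.84%. The order of Cacna1b and Cacna1e is within their spread. Cacna1i (ENSMUSG00000022416) spans chr15:80287238-80398279 on the plus strand and was close to the lower limit of the test. Its levels were 0.37, 0.46, 0.75, 0.42 and 0.45 TPM in WT, 0.53, 0.45, 1.13, 0.64 and 0.82 TPM in Het, and 1.87, 1.84, 1.39 and 1.09 TPM in Hom. All Hom libraries lay above all WT libraries, with a background of 2.91% for such genes, and Hom 4 lay just below Het 3. The log2 change in Hom was 0.78 (SE 0.17, 95% interval 0.42 to 1.14, limma adjusted p = 0.0247), in Het 0.19 (SE 0.16, adjusted p = 0.889), and from Het to Hom 0.59 (SE 0.17, adjusted p = 0.256). Cacna1i reached 1 TPM in 5 libraries only, the 4 Hom libraries and Het 3, so it passed the filter only through the group in which it was high and had to differ. With the filter at a TPM above 0 in at least 4 libraries, which every genotype passes for this gene, it was also called (limma adjusted p = 0.00989). The call is lost with WT 1 to 3 and Het 3 left out (0.78, limma adjusted p = 0.146), in either batch alone (0.91, adjusted p = 0.170, and 0.64, adjusted p = 0.283), with only the WT and Hom libraries fitted (0.79, adjusted p = 0.0632), and without WT 1, WT 2, WT 4, WT 5, Hom 1, Hom 2 or Hom 3 (adjusted p of 0.0501 to 0.0935).

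Cacna1e, the leading pore subunit, had a lower mean in Hom that did not pass adjustment. It measured 35.8, 44.5, 38.7, 46.8 and 38.4 TPM in WT, 28.2, 47.5, 32.6, 28.9 and 38.1 TPM in Het, and 25.3, 37.6, 28.0 and 26.0 TPM in Hom. Hom 2 lay inside the WT range and the other 3 Hom libraries below it. The log2 change was -0.47 (SE 0.16, 95% interval -0.81 to -0.14, limma adjusted p = 0.160), and its share of the class was 18.9 ± 2.47% in Hom. The remaining high-voltage-activated subunits stayed nearer to 0, with changes in Hom of -0.20 for Cacna1b, -0.14 for Cacna1c, 0.01 for Cacna1a and 0.15 for Cacna1d, the L-type subunit of pacemaking cells. Their 95% intervals all include 0. Cacna1g, the T-type subunit prominent in Purkinje cells and deep nuclei, ranged from 5.38 to 18.3 TPM over all libraries (log2 change -0.03, 95% interval -0.59 to 0.53). Its change in Hom was -0.51 in batch 1 and 0.57 in batch 2 (limma interaction term, adjusted p = 0.260). Cacna1h, another T-type subunit, had 3.72 ± 1.01 TPM in WT and 3.54 ± 0.747 TPM in Hom. Cacna1s, the pore of the skeletal muscle channel, had 1.94 ± 0.865 TPM in WT and 2.30 ± 1.01 TPM in Hom (log2 change 0.15, 95% interval -0.41 to 0.71), beside the skeletal muscle markers given above, 2 of which (Myh3 and Acta1) were called higher in Hom. The part of muscle RNA in it was not tested.

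The Cacnb subunits, which bind the pore from inside and set its gating and surface number, were led by Cacnb3. Cacnb3 measured 54.2, 61.8, 58.6, 68.0 and 65.8 TPM in WT, 51.6, 56.1, 55.3, 61.0 and 64.3 TPM in Het, and 46.9, 42.7, 68.6 and 51.7 TPM in Hom. Hom 3 was the highest of all 14 libraries, and the other 3 Hom libraries lay below every WT library. Against WT the log2 change in Hom was -0.27 (SE 0.08, 95% interval -0.45 to -0.10, limma adjusted p = 0.117). Without Hom 3, the Hom library that went the other way, it was -0.37 and was called (limma adjusted p = 0.00753). That was the only call in the 14 fits without 1 library, where the limma adjusted p reached 0.298. Cacnb1, the skeletal muscle beta subunit that is also found in brain, had 17.7 ± 1.35 TPM in WT and 16.3 ± 3.39 TPM in Hom. Cacnb4, whose loss gives the ataxic lethargic mouse, had 7.63 ± 1.12 TPM in WT and 8.68 ± 1.87 TPM in Hom. Cacnb2 had 4.33 ± 1.36 TPM in WT and 4.25 ± 0.570 TPM in Hom. Its log2 change in Hom was 0.37 in batch 1 and -0.47 in batch 2 (limma interaction term, adjusted p = 0.148). Over both batches the log2 changes of these 3 genes lay between -0.15 and 0.16 and none passed the test. Cacnb4 shares 15% of its 50-base words with other annotated transcripts, nearly all with an antisense gene, and whether reads were assigned by strand is not given in the sources used here.

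**Figure D3:**
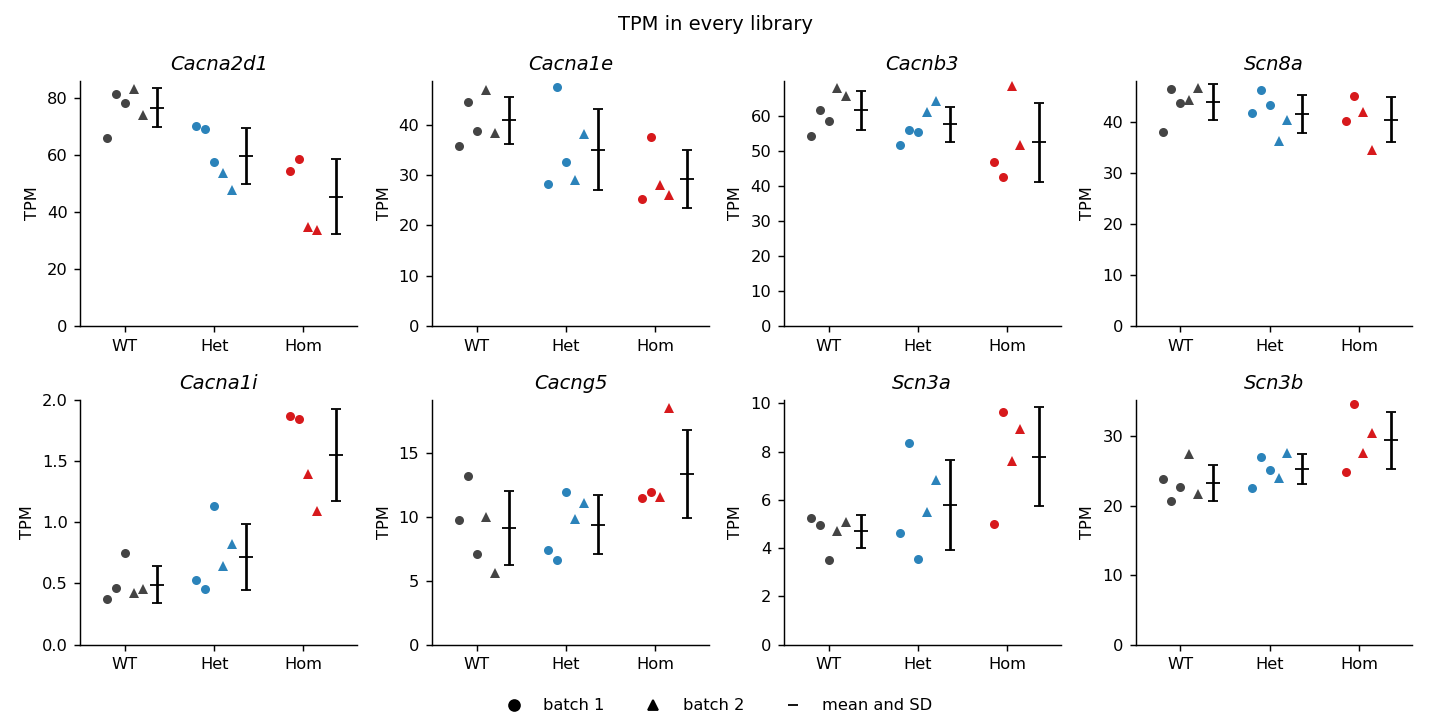
TPM of 8 channel genes in every library. Each panel is 1 gene, with TPM on a y axis from 0 and genotypes on the x axis, points for libraries (circles batch 1, triangles batch 2) and black bars for the mean and SD. Hom lies wholly below WT for Cacna2d1 (33.6 to 58.8 against 66.0 to 83.1 TPM) and wholly above it for Cacna1i (1.09 to 1.87 against 0.37 to 0.75 TPM), and the groups overlap in the other 6 panels.

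The Cacng class held 2 abundant genes, Cacng7 and Cacng2 (stargazin), both auxiliary subunits of AMPA receptors. Cacng7 measured 43.3, 42.4, 41.7, 54.9 and 52.3 TPM in WT, 44.3, 44.1, 42.9, 51.8 and 46.7 TPM in Het, and 40.5, 35.5, 53.4 and 41.6 TPM in Hom. The log2 change in Hom was -0.16 (SE 0.08, 95% interval -0.33 to 0.00, limma adjusted p = 0.340). Cacng2 had 42.1 ± 6.97 TPM in WT, 48.4 ± 2.18 TPM in Het and 45.4 ± 3.70 TPM in Hom, and its WT libraries split by batch, with 34.9 to 39.4 TPM in WT 1 to 3 and 48.3 and 50.6 TPM in WT 4 and 5. Its Het change was 0.21 (limma adjusted p = 0.812), with 0.38 in batch 1 and -0.04 in batch 2. Cacng4 measured 22.0, 28.2, 17.6, 24 and 18.5 TPM in WT, 19.3, 23.5, 25.6, 27.3 and 26.1 TPM in Het, and 23.7, 29.8, 27.5 and 27.7 TPM in Hom (log2 change in Hom 0.30, SE 0.14, 95% interval 0.00 to 0.59, limma adjusted p = 0.332). Cacng5 measured 9.74, 13.2, 7.11, 9.96 and 5.63 TPM in WT, 7.43, 6.65, 11.96, 9.81 and 11.1 TPM in Het, and 11.5, 11.9, 11.6 and 18.5 TPM in Hom (log2 change in Hom 0.52, SE 0.23, 95% interval 0.02 to 1.02, limma adjusted p = 0.318). In both genes the Hom libraries overlapped WT, and in Cacng5 Hom 4 alone lay above every WT library. Cacng3 and Cacng8, further AMPA receptor subunits that are strong in forebrain, stayed at 0.85 to 2.69 TPM in all libraries. Cacng1, the gamma subunit of the skeletal muscle channel, was at 0 to 0.47 TPM and Cacng6 at 0 to 0.22 TPM. Cacng1, Cacng4 and Cacng5 lie side by side on chromosome 11, and Cacng6, Cacng7 and Cacng8 on chromosome 7.

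The sodium channel pores were led by Scn8a, the subunit of adult axon initial segments and nodes. Scn8a measured 38.0, 46.5, 43.8, 44.4 and 46.8 TPM in WT, 41.9, 46.4, 43.3, 36.3 and 40.4 TPM in Het, and 40.3, 45.1, 42.1 and 34.6 TPM in Hom. The groups overlapped, with a log2 change in Hom of -0.11 (SE 0.09, 95% interval -0.30 to 0.09, limma adjusted p = 0.636). Scn3a, the alpha subunit of embryonic and newborn brain, measured 5.24, 4.95, 3.52, 4.70 and 5.07 TPM in WT, 4.63, 8.35, 3.56, 5.48 and 6.84 TPM in Het, and 4.98, 9.64, 7.61 and 8.92 TPM in Hom. Hom 1 lay inside the WT range and the other 3 Hom libraries above it. Scn3a had a log2 change in Hom of 0.58 (SE 0.21, 95% interval 0.12 to 1.04, limma adjusted p = 0.209). Scn2a, the alpha subunit of unmyelinated and immature axons, had 4.76 ± 0.560 TPM in WT and 5.76 ± 1.59 TPM in Hom. Scn1a, the alpha subunit of inhibitory interneurons, had 2.20 ± 0.381 TPM in WT and 2.65 ± 0.903 TPM in Hom. Their log2 changes in Hom were 0.23 and 0.19, with 95% intervals that include 0, and Hom 2 was the highest library for both. Summed inhibitory interneuron markers were also highest in Hom 2 (212 TPM, beside 109 to 179 TPM in the other libraries), and their part in these values was not tested. Scn8a made up 77.7 ± 2.68% of the alpha subunit sum in WT, 75.1 ± 3.27% in Het and 69.8 ± 5.57% in Hom, and Scn3a 8.33 ± 1.33%, 10.3 ± 2.76% and 13.3 ± 2.98%. Scn1a, Scn2a, Scn3a and Scn9a lie in 1 cluster on chromosome 2 and share 4.03% to 6.49% of their 50-base words, largely with each other, so a small part of their reads can be split among them.

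Among the sodium channel beta subunits, which double as adhesion molecules, Scn3b was the leading gene. Scn3b measured 23.9, 20.8, 22.8, 27.5 and 21.7 TPM in WT, 22.5, 27.0, 25.1, 24.1 and 27.7 TPM in Het, and 24.9, 34.6, 27.6 and 30.5 TPM in Hom. Hom and WT overlapped, as Hom 1 lay below WT 4. Its log2 change in Hom was 0.31 (SE 0.11, 95% interval 0.09 to 0.54, limma adjusted p = 0.170). Scn2b ranged from 1.23 to 5.56 TPM over all libraries, with a log2 change in Hom of 0.49 (95% interval -0.14 to 1.12), so the libraries would not separate changes of moderate size. Scn4b, a subunit of mature Purkinje and striatal neurons, was at 0.03 to 0.35 TPM.

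Summed by class, Cacna2d was the one in which Hom and WT did not overlap. Its sum was 77.7 to 96.2 TPM in WT, 61.7 to 82.5 TPM in Het and 47.1 to 72.1 TPM in Hom, and as shown above Cacna2d1 carried that difference. The Cacna1 sum was 170 ± 20.7 TPM in WT and 155 ± 21.6 TPM in Hom, the Cacnb sum 91.3 ± 7.98 and 81.7 ± 13.4 TPM, and the Cacng sum 124 ± 13.97 and 133 ± 8.12 TPM. The Scn alpha sum was 56.5 ± 3.34 TPM in WT and 58.3 ± 7.08 TPM in Hom, and the Scn beta sum 28.7 ± 3.26 and 35.3 ± 3.22 TPM. These sums were not tested.

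**Figure D4:**
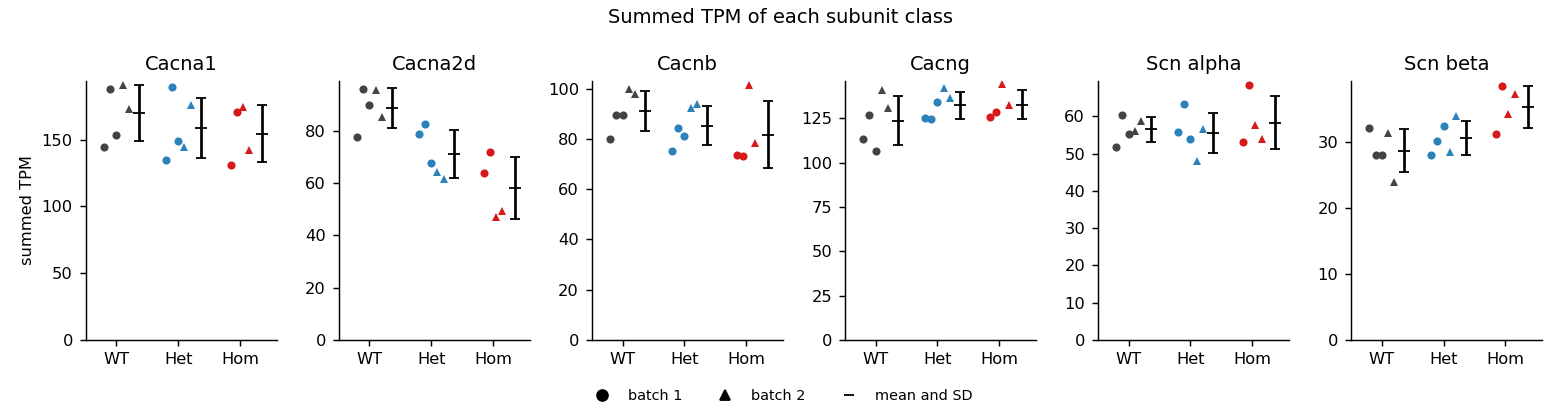
Summed TPM of each subunit class. Each panel is 1 class, with summed TPM on a y axis from 0 and genotypes on the x axis, points for libraries (circles batch 1, triangles batch 2) and black bars for the mean and SD. The Hom libraries of Cacna2d (47.1 to 72.1 TPM) lie below all WT libraries (77.7 to 96.2 TPM), and the other classes overlap.

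Channel genes are long, and the study asked about long neuronal genes. Its expression result for long genes came from microarrays of cultured postmitotic granule neurons, either Chd7 mutant or treated with a topoisomerase II inhibitor. It also compared the lengths of genes bound by Chd7 in GNPs and by the topoisomerase Top2b in such neurons, from chromatin immunoprecipitation. The values below are from freshly isolated GNPs and RNA sequencing, so they are a description and no test of those results. Annotated spans, from start to end with introns, reached 817 kb (Cacna2d3), and 20 of 40 members (50%) were over 100 kb, against 12.7% of tested genes that had a position. Of the 16 tested members over 100 kb, 1 was called lower (Cacna2d1, 440 kb) and 1 higher (Cacna1i, 111 kb), beside 4.51% and 2.9% of all tested genes of that length. Of these 16, 7 had a log2 change in Hom below 0 and 9 above, with a median of 0.059, beside 0.044 for all tested long genes. Of the 13 shorter members limma called 0, beside 0.973% lower and 1.04% higher among all shorter genes, and before adjustment 1 had a p under 0.05 in the lower direction (Cacnb3, background 5.89% of shorter genes) and 3 in the higher (Cacng4, Cacng5 and Scn3b, background 7.96%). Of the 16 long members, 2 had such a p in the lower direction (Cacna2d1 and Cacna1e, background 10.5% of long genes) and 2 in the higher (Cacna1i and Scn3a, background 12.8%). Genes longer than Cacna2d1 on this scale were Cacna1d, Cacna1e, Cacna1c and Cacna2d3, with changes of 0.15, -0.47, -0.14 and 0.15.

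**Figure D5:**
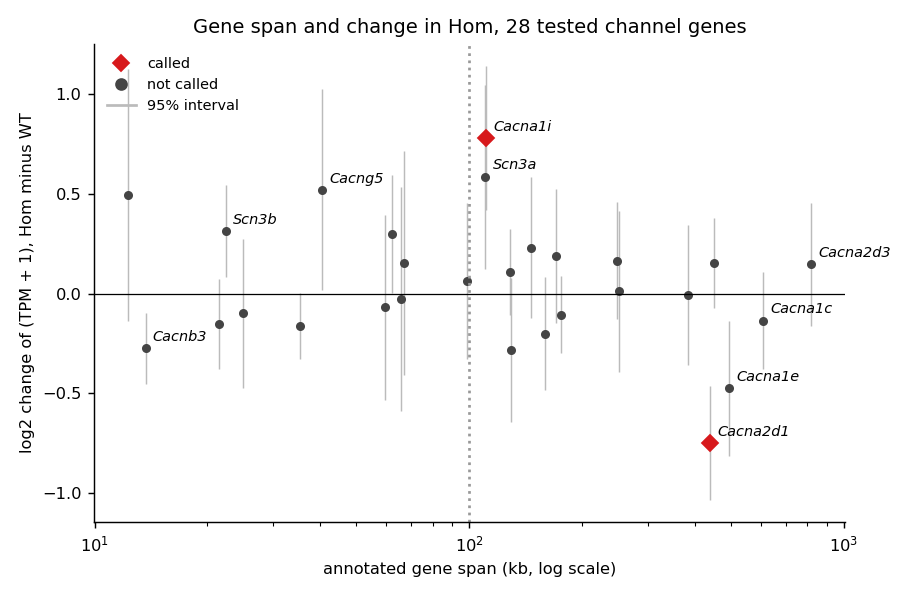
Gene span and change in Hom. Each point is 1 of 28 tested channel genes, with the annotated span in kb on a log x axis and the log2 change of (TPM + 1) in Hom against WT on the y axis, grey lines for the 95% interval, red diamonds for called genes and a dotted line at 100 kb. Members over 100 kb lie on both sides of 0, with 7 below and 9 above.

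Promoter windows of 300 bases were found in RefSeq for 30 of the 40 members. Some genes have several: these members had 41 windows, and all 27025 genes with a window had 32851. A gene was counted if any of its windows matched, so genes with more windows had more chances of a match. An E-box (CANNTG) was present for 80% of these members and for 75.0% of all genes with a window, and its form CAGCTG for 40% and 18.3%. CAGATG, an E-box form tied to proneural factors, was present for 20% of the members and 19.2% of all genes. A GC box was present for 50% and 38.2%, CCAAT for 33.3% and 41.1%, and TATAAA for 6.67% and 15.7%. TTCAGCACC, the left part of the element bound by the neuronal repressor REST, was in 0 of the 30 members' windows and in 0.433% of all genes. The median GC content was 59.3% over the members' windows and 52.7% over all windows. CAGATG and CAGCTG are also counted under CANNTG, and both strands were searched.

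Genes that work with these channels were counted from lists of partners. In Hom against WT, 2 of 16 sodium channel partners were called lower and 0 higher, beside the 1.41% lower and 1.27% higher of all tested genes that all these lists can be read against. These were Nrcam (82.9 ± 5.09 TPM in WT, 57.5 ± 5.74 TPM in Hom, log2 change -0.51, limma adjusted p = 0.00185), a cell adhesion molecule that gathers sodium channels at nodes, and Fgf13 (62.0 ± 5.47 and 49.5 ± 4.40 TPM, -0.33, adjusted p = 0.0340), an intracellular factor that binds the alpha subunit tail. The 2 of 14 tested calcium channel partners called lower, with 0 higher, were Calm2 (-0.26, limma adjusted p = 0.0183), a calmodulin gene, and Rims1 (15.97 ± 1.63 and 11.5 ± 0.385 TPM, -0.45, adjusted p = 0.0420), a scaffold that ties channels to vesicle release. Of 19 tested genes of calcium stores and extrusion, 1 was higher and 1 lower, both sodium-calcium exchangers. Slc8a2 had 18.9 ± 3.12 TPM in WT and 26.5 ± 4.34 TPM in Hom (0.43, limma adjusted p = 0.00711), and Slc8a1 17.0 ± 0.884 and 12.6 ± 0.803 TPM (-0.41, adjusted p = 0.0198).

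Of the 3 tested genes of the sodium leak channel complex, which holds the resting potential, the pore gene Nalcn was higher. Nalcn measured 4.77, 5.28, 4.83, 4.25 and 4.74 TPM in WT, 5.67, 5.18, 5.13, 4.47 and 8.89 TPM in Het, and 8.65, 10.0, 8.14 and 13.3 TPM in Hom. All Hom libraries lay above all WT libraries, as they did for 2.91% of all tested genes, and Het 5 lay within the Hom range. Its log2 change in Hom was 0.91 (limma adjusted p = 0.0131). Of 12 tested calcium-dependent kinases and phosphatase genes, 1 was lower, Ppp3ca (164 ± 18.1 TPM in WT, 120 ± 15.1 TPM in Hom, -0.45, limma adjusted p = 0.0262), a catalytic subunit of calcineurin. Its other catalytic subunit genes, Ppp3cb (log2 change 0.07) and Ppp3cc (-0.08), were not called. In Het against WT limma called 0 genes in each of the 5 lists, with 6 of their 64 tested genes in all at an unadjusted p under 0.05, beside 6.08% of all tested genes. Granule neuron markers moved in Hom against WT, with 2 of 7 tested called lower (Tubb3, a neuronal tubulin, and Slc17a7, a glutamate transporter) and 1 higher (Grin2c, a glutamate receptor subunit). Grin2c was at 0.32 to 0.74 TPM in WT and reached 1 TPM in 6 libraries only, all Hom libraries among them. It therefore passed the filter only through the group in which it was high. The summed level of the granule neuron markers was 1799 to 2147 TPM in WT and 1544 to 1968 TPM in Hom, and its part in the values of the channel genes was not tested.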

How the data were processed

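The authors sequenced total RNA (single-end 50 bp reads), mapped it to the Ensembl mm10 transcriptome with Bowtie 1.0.0 and estimated expression with RSEM 1.2.15. They deposited 1 table of TPM values per gene, which keeps no record of read depth, so depth and counting error are unknown. Whether each library is a separate animal is not given in the sources used here, so p-values measure the spread between libraries, which may be in part technical. Columns headed Con were read as WT, number by number, and batches follow the study's methods.

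Symbols, positions (1-based, GRCm38) and transcripts came from GENCODE M21 (40340 of 41381 genes matched) and promoters from RefSeq. The 17325 genes that reached 1 TPM in 4 or more libraries were fitted as log2(TPM + 1), which understates changes at low TPM, with limma 3.58.1 in R 4.3.3 (lmFit, eBayes with trend), genotype and batch as terms, over all 14 libraries. P-values were two-sided and Benjamini-Hochberg adjusted, and genes were called at an adjusted p under 0.05. The fit was tested on simulated data. The study's rank test was replaced by an exact Kruskal-Wallis test over 252252 arrangements after removeBatchEffect, as ComBat was not run.

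Named with every library are members called in a contrast, with an unadjusted p under 0.05 in Hom against WT, or highest in WT in their class, and Nalcn. Partner genes are named where called. Other members are given by means or ranges. Single values of 2 members are not reported here, though counts and sums include them. The members, partner lists, marker lists and motifs were chosen with earlier results of these data known.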

Additional observations from a re-analysis of the deposited data

Results flagged for a closer look

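Of 87 groups of member values checked, 7 held a library far from the others by Dixon's test, where chance gives about 1 in 20. In WT these were Cacna1c in WT 4 (39.0 TPM, nearest 29.5), Cacna1g in WT 2 (18.3 TPM, nearest 9.26) and Cacna1i in WT 3 (0.75 TPM, nearest 0.46). In Hom they were Cacng2 in Hom 4 (39.8 TPM, nearest 47.0), Cacng5 in Hom 4 (18.5 TPM, nearest 11.9), Scn1a in Hom 2 (4.0 TPM, nearest 2.27) and Scn2a in Hom 2 (8.13 TPM, nearest 5.11).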

How the results depend on the processing

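The number of members called lower in Hom against WT (1) became 0 in batch 1 alone and 0 in batch 2 alone, and it ran from 1 to 2 when single libraries were left out, with Cacnb3 added without Hom 3. The number called higher (1) became 0 with a mean TPM of at least 5 (where Cacna1i was not tested), with the replicate block, in batch 1 alone, in batch 2 alone, with only the 2 genotypes compared, and with WT 1, WT 2, WT 3 and Het 3 left out together, an alternative chosen after seeing the data. It ran from 0 to 1 when single libraries were left out. The counts of 0 in Het against WT and in Hom against Het stayed at 0 in all 27 alternatives. Cacna2d1 was called in 10 of 13 alternatives and in all 14 fits without 1 library (-0.85 to -0.65), and Cacna1i in 7 of 12 and 7 of 14. Same-numbered libraries correlated at -0.235 to 0.264 in their deviations from group means, so the numbers were not taken as pairs. With the replicate block, the adjusted p was 0.0713 for Cacna2d1 (-0.73), 0.0671 for Cacna1i (0.90) and 0.0426 for Cacnb3 (-0.36). The smaller batch fits hold 8 and 6 libraries. Among the members named with every library, signs turned only for changes near 0 that were not called. In batch 1 alone they turned for Cacng5 in Het (-0.19), Cacng7 in Het (0.0441), and Scn8a in Hom (0.0007) and Het (0.0389). Without single libraries they turned for Cacng5 in Het (-0.12 to 0.21), Cacng7 in Het (-0.0377 to 0.0164) and Scn8a in Hom against Het (-0.0785 to 0.0287). The other members were not followed in this way, and some had opposite signs in the 2 batches. These included Cacng2 in Het (0.38 in batch 1, -0.04 in batch 2) and in Hom (0.34, -0.19), and Cacna1g in Hom (-0.51, 0.57). The cause was not tested. Median-ratio and quantile scaling moved the median of all genes from 0.024 to -0.004 and 0.002. Read depth is unknown, so genes near 1 TPM such as Cacna1i carry a counting error that cannot be given.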
